A study of Rattus norvegicus with 54 samples.

Results

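The hearts of undisturbed rats in the middle of the light phase were compared with those in the middle of the dark phase, using the C rats collected at ZT5 (C18, C26 and C34) and at ZT17 (C21, C29 and C37). These are 6 of the 18 C rats and of the 54 rats of the series. They were taken by their group and time of collection, a choice made with earlier results of these data known. All were male wild-type Wistar rats, 7-8 weeks old at the start, which lived singly for 5 weeks under 12 h of light and 12 h of darkness, with food and water always within reach and without handling. ZT gives the hours since lights-on. A rat rests in the light and moves and feeds in the dark, so that the light phase, the hours of rest and the hours without much feeding cannot be told apart in this comparison. The W rats of the series worked in a turning drum during their rest phase, and WRF rats did the same without food during work. They serve here only to show the same hours in other animals.

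Nearly every mammalian cell, the heart muscle cell included, carries a circadian clock. In it, Arntl (BMAL1) pairs with Clock or Npas2 and switches on the Per and Cry genes, whose proteins then block that pair, while Nr1d1 (REV-ERB alpha), driven by the same pair, represses Arntl and Npas2. The clock also drives output factors such as Dbp and Tef, and it is set in peripheral organs by feeding, body temperature and glucocorticoids, the adrenal hormones that in rats rise toward the night.

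Values are fpkm, fragments per kilobase of transcript, scaled to the reads of each library, for 10257 genes. The sums over all genes ran from 431402 to 466785 fpkm at ZT5 and from 423611 to 642210 at ZT17. Heart muscle markers were high in all 6 rats, the summed level of 10 genes being 37145 to 45307 fpkm at ZT5 and 27351 to 64232 at ZT17. Atrial RNA set 1 rat on each side apart. Myl7, the atrial light chain, stood at 3403 fpkm in C18 (ZT5) and 5704 in C29 (ZT17), and between 3.70 and 18.4 in the other 4 rats. The summed level of 10 fibroblast genes in C29 was 2592 fpkm, against 667 to 1282 in the other rats, and that of 10 smooth muscle genes was 682 against 129 to 285. The 3 measured neutrophil genes summed to 303 and 271 fpkm in C18 and C26 and to 8.26 to 81.6 fpkm elsewhere. The liver gene Alb was at 68.7, 0.520 and 106 fpkm at ZT5 and at 0.736, 5.02 and 5.44 at ZT17. In whole-heart RNA, fewer cells of a type and less RNA per cell cannot be told apart.

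In C hearts, 32 of 10257 genes (0.312%) differed between ZT17 and ZT5, with 21 higher at ZT17 (0.205%) and 11 higher at ZT5 (0.107%). The test was limma on log2(fpkm + 1) over all 18 C rats with Benjamini-Hochberg adjustment and a threshold of 0.05, so that the spread was estimated from all 6 times of collection. Genes of the clock and its output were found in both directions, with Per2, Tef, Per1, Wee1, Cry1 and Cry2 higher at ZT17 and Nr1d1, Arntl and Npas2 higher at ZT5. Glucocorticoid-induced genes (Tsc22d3, Fkbp5, Ddit4) were higher at ZT17. The others ranged from Rhobtb1 to Col5a3, a collagen chain. In all 32 genes the 3 rats at one time lay above the 3 at the other, which was so in 8.37% of all genes. It was also so in 383 of the 470 genes with an unadjusted p under 0.05. The 32 were chosen on these same values, so this is a description. Differences are given as ZT17 minus ZT5 on the log2(fpkm + 1) scale, which understates the change of low genes, and folds as ratios of mean fpkm.

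**Figure D1:**
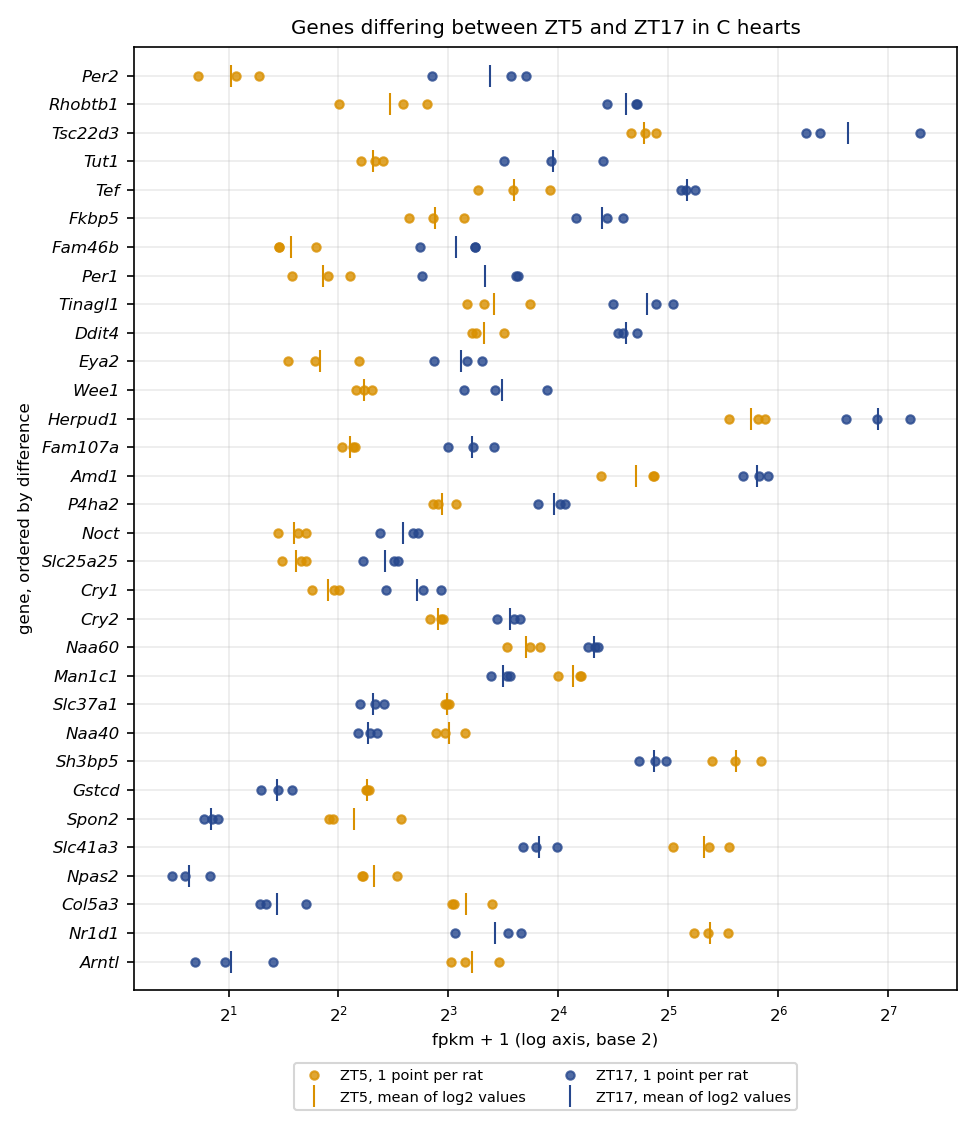
The 32 genes with an adjusted p under 0.05 in C hearts, ordered by the difference between ZT17 and ZT5. The horizontal axis is fpkm + 1 on a log axis of base 2. Each point is 1 rat at ZT5 (orange) or ZT17 (blue), and bars mark the mean of the 3 log2 values. In every gene the 2 sets of points stand apart, by 2.35 in Per2 and by 0.62 in Naa60.

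The start regions of 5 of these genes are shown. Each holds a motif of the clock, as do those of Slc25a25 and Naa60, which are not shown. The 5 include the gene with the largest difference in each direction. Promoters are the 250 bases before and the 50 after the gene start in RefSeq (build GRCr8), with an entry for 29 of the 32 genes (not Cry1, Eya2 or Wee1). The files were made on another build, rn6. Letters in capitals mark a match, on either strand, to the E-box (CACGTG), the D-box (TTANGTAA) or the ROR element (TAGGTCA). Arntl (listed as Bmal1) lies on the plus strand at chr1:176766078-176766377, Per2 on the minus strand at chr9:99496944-99497243, Tef on the plus strand at chr7:115206577-115206876, Rhobtb1 on the minus strand at chr20:19402008-19402307, and Slc41a3 on the plus strand at chr4:124684717-124685016.
Arntl: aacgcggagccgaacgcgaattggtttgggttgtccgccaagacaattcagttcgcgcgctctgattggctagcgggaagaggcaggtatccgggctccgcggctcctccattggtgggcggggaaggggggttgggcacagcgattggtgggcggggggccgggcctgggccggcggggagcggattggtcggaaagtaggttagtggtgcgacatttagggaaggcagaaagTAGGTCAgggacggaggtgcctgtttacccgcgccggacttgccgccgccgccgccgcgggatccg
Per2: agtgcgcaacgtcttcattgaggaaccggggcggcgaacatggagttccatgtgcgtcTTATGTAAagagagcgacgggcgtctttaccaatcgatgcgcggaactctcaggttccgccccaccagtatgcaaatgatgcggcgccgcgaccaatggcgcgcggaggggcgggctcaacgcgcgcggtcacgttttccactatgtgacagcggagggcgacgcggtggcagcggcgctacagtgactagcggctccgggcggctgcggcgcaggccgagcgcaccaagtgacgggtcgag
Tef: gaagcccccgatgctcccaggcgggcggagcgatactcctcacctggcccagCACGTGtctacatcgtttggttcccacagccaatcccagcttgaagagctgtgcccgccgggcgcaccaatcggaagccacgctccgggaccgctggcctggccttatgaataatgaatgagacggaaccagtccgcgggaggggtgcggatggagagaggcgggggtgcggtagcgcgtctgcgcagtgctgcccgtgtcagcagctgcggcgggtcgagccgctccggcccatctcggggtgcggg
Rhobtb1: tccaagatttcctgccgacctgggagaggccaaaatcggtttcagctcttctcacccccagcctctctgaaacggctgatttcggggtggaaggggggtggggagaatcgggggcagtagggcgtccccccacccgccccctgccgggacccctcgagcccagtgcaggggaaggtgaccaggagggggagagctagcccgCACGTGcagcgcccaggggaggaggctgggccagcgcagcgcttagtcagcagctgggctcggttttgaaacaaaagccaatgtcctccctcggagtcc
Slc41a3: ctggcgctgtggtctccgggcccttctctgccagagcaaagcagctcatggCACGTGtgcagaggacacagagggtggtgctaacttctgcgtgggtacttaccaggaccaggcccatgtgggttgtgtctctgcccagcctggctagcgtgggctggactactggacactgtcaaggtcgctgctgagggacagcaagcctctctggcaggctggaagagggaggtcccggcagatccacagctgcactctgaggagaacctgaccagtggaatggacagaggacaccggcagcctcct

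The ROR element, to which Nr1d1 binds, began 16 bases before the start of Arntl, and in no other promoter of the 29. It occurred in 2.60% of all 27457 promoters of this length. An E-box, the motif of the Arntl pair, was held by Tef and Rhobtb1 among the 18 genes higher at ZT17 and by Slc41a3 among the 11 higher at ZT5, against 6.65% of all promoters. The E-boxes of Tef and Slc41a3 lay 198 and 199 bases before the start, and these genes differed in opposite directions. A D-box, bound by Dbp and Tef, was present in Per2, Slc25a25 and Naa60, all higher at ZT17, against 2.19% of all promoters. The letters ACANNNTGT, the spaced core of the glucocorticoid response element, were found in Fam107a and Spon2, which differed in opposite directions, and in 6.6% of all promoters. The cAMP response element (TGACGTCA, 1.91% of all promoters) was found in Slc25a25. A match describes the letters in this window and is not a binding site.

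Of the repressors of the clock, Per2 had the largest difference of all 32 genes. It was at 1.10, 1.42 and 0.649 fpkm in the 3 rats at ZT5 and at 10.9, 12.0 and 6.20 fpkm at ZT17. C37 was the lowest rat at ZT17 and still lay far above the ZT5 rats, with a mean 9.21-fold higher at ZT17 (log2 difference 2.35 ± 0.295 (SE, n = 3 a side), limma adjusted p = 0.00132). Its partner Per1 stood at 3.30, 2.74 and 1.98 fpkm at ZT5 and at 11.4, 11.3 and 5.76 at ZT17. C37 was again the lowest of the ZT17 rats, and the mean was 3.55-fold higher at ZT17 (1.48 ± 0.268, limma adjusted p = 0.0245). The cryptochromes, which act with the Per proteins, had smaller differences. Cry1 rose from 3.01, 2.88 and 2.39 fpkm to 5.80, 6.65 and 4.38, a 2.03-fold higher mean (limma adjusted p = 0.0323). Cry2 rose from 6.65, 6.11 and 6.75 fpkm to 9.84, 11.1 and 11.5, a 1.67-fold higher mean (limma adjusted p = 0.0374). Per1 lost its call without C18, C21, C26, C29 or C34 (limma adjusted p up to 0.177) and Cry1 without the same rats (up to 0.190). Cry2 lost it without any 1 of the 6 (up to 0.219), and Per2 kept it throughout (up to 0.0154).

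Of the activators, Arntl and Npas2 were higher at ZT5 than at ZT17. Arntl was at 7.87, 7.15 and 9.99 fpkm at ZT5 and at 0.954, 1.65 and 0.618 fpkm at ZT17, a mean 7.76-fold higher at ZT5 (log2 difference -2.19 ± 0.237, limma adjusted p = 0.000488). Npas2 was at 4.78, 3.65 and 3.67 fpkm at ZT5 and at 0.396, 0.780 and 0.524 at ZT17, 7.12-fold higher at ZT5 (-1.68 ± 0.261, limma adjusted p = 0.00863). Both were near the bottom of the scale in every rat at ZT17. Clock, the third activator, was at 5.48, 6.30 and 4.77 fpkm against 4.05, 4.5 and 1.77, with no overlap between the times, but did not pass the test (-0.61 ± 0.333, limma adjusted p = 0.9999). The smallest p of all genes belonged to the repressor Nr1d1, at 36.6, 45.7 and 40.2 fpkm at ZT5 and at 7.36, 11.6 and 10.6 at ZT17. Its mean was 4.14-fold higher at ZT5 (-1.96 ± 0.169, limma adjusted p = 7.56e-05). Arntl and Nr1d1 kept their call without any 1 of the 6 rats (limma adjusted p up to 0.00646 and 0.00122), and Npas2 lost it without C18 or C21 (up to 0.0730).

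Of the 12 measured core clock genes 7 passed, 4 higher at ZT17 (0.205% of all genes) and 3 higher at ZT5 (0.107%). An unadjusted p under 0.05 was found in 8, against 4.58% of all genes. The gene lists here and below were drawn up with earlier results of these data known, so such counts are a description. The other 5 core clock genes did not pass, and 3 of them, Ciart, Nr1d2 and Bhlhe40, had their highest mean at ZT9. Ciart, a repressor of the Arntl pair, had a mean of 10.3 fpkm at ZT9 and 0.117 at ZT1, yet was at 0.656, 1.03 and 0.326 fpkm at ZT5 and at 0.996, 0.798 and 1.35 at ZT17 (0.31 ± 0.176, limma adjusted p = 0.9999). Nr1d2, the relative of Nr1d1, had means from 3.68 fpkm at ZT1 to 21.5 at ZT9, with 14.5 at ZT5 and 13.6 at ZT17. Per3 had means of 1.36 and 5.2 fpkm at ZT5 and ZT17, but the single rats overlapped (1.24 ± 0.478, limma adjusted p = 0.781). Bhlhe40 was at a mean of 14.8 fpkm at ZT5, 19.5 at ZT9 and 10.4 at ZT17, and its rats overlapped as well.

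**Figure D2:**
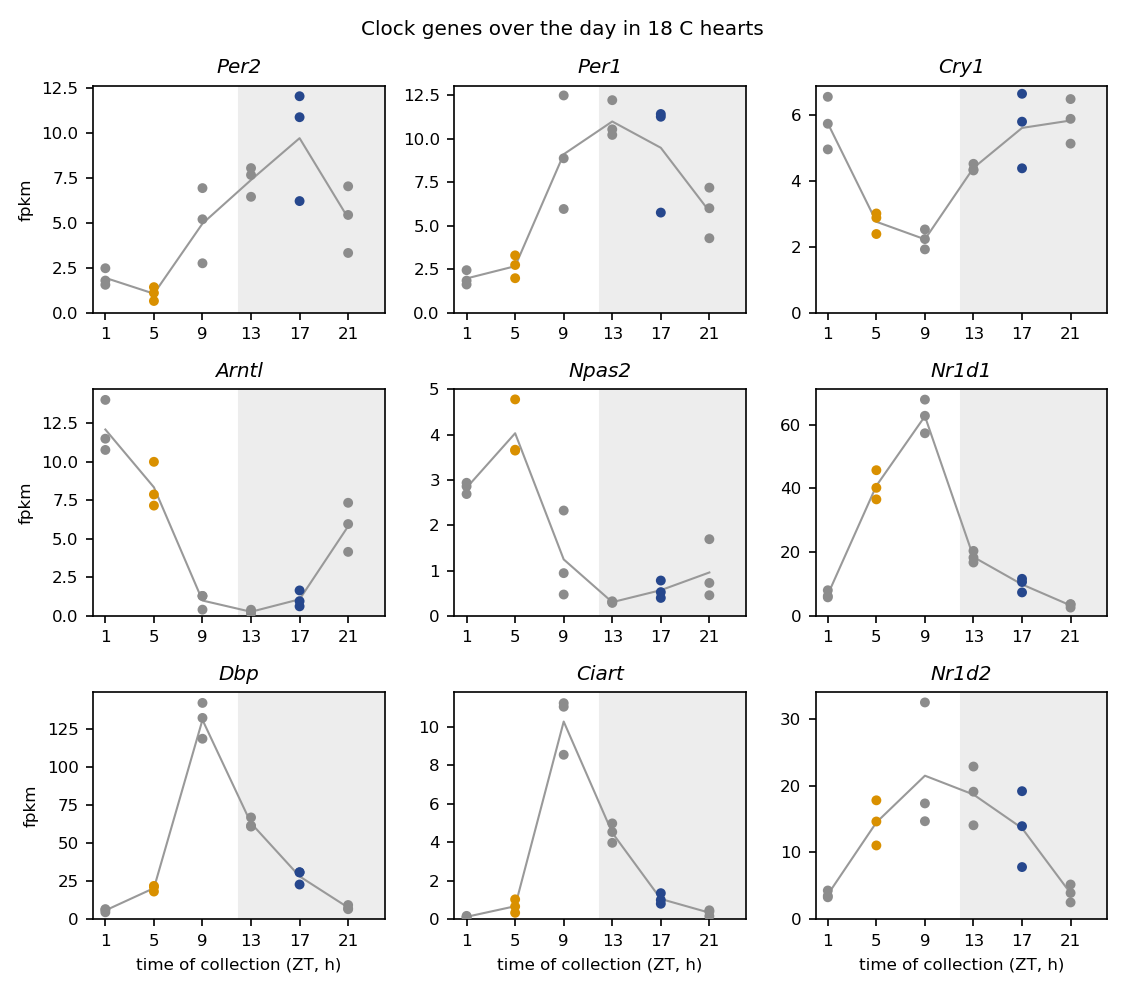
Levels of 9 clock genes in fpkm against the time of collection in ZT hours in all 18 C hearts. Each point is 1 rat, orange at ZT5, blue at ZT17 and grey at the other times. The line joins the means of 3 rats and grey shading marks darkness. Per2, Arntl and Npas2 separate the 2 times. Dbp, Ciart and Nr1d2 peak at ZT9 and did not pass between ZT5 and ZT17, although every Dbp point at ZT17 lies above those at ZT5.

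Among 14 measured output genes, 3 passed the test, all higher at ZT17 (0.205% of all genes), and 8 had an unadjusted p under 0.05, all higher at ZT17 (3.16% of all genes). The other 6 had a p of 0.05 or more. This list too was drawn up with earlier results of these data known. Tef, a bZIP activator, was at 11, 14.2 and 8.64 fpkm at ZT5 and at 34.8, 37 and 33.6 at ZT17, a mean 3.11-fold higher (1.58 ± 0.197, limma adjusted p = 0.00132). Wee1, a kinase that holds back cell division, was at 3.70, 3.95 and 3.48 fpkm at ZT5 and at 9.72, 13.9 and 7.81 at ZT17, a mean 2.82-fold higher (limma adjusted p = 0.0409, and up to 0.214 without C18, C21, C26, C29 or C34). Dbp, a close relative of Tef with the largest swing of the output factors, went from a mean of 5.68 fpkm at ZT1 to 131 at ZT9. At ZT5 and ZT17 it was at 21.1, 21.8 and 18.1 against 22.7, 30.8 and 30.6 fpkm (0.44 ± 0.160, limma adjusted p = 0.700). Usp2, which encodes a deubiquitinating enzyme, was just beyond the threshold at 8.80, 11.9 and 9.22 against 23.4, 17.8 and 16.1 fpkm (0.87 ± 0.191, limma adjusted p = 0.0896).

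Genes induced through the glucocorticoid receptor formed the other group with several calls. Of 20 measured, 4 passed, all higher at ZT17 (Tsc22d3, Fkbp5, Ddit4 and Per1, against 0.205% of all genes). At an unadjusted p under 0.05, 11 were higher (3.16% of all genes) and 1 lower (1.42%). Per1 and Tsc22d3 are also counted above among the clock and output genes. The median difference of the list was 0.54, against 0.03 over all genes. The list was drawn up with earlier results of these data known, so its counts and median are a description. Tsc22d3 (GILZ), an anti-inflammatory protein, was at 24.3, 26.6 and 28.5 fpkm at ZT5 and at 75.3, 155 and 82.0 at ZT17. C29, a rat with atrial RNA, was the highest, and the mean was 3.93-fold higher at ZT17 (1.86 ± 0.307, limma adjusted p = 0.0162). Fkbp5, a chaperone that curbs the receptor, was at 6.25, 5.23 and 7.84 fpkm at ZT5 and at 20.7, 23.1 and 16.9 at ZT17 (1.52 ± 0.254, limma adjusted p = 0.0173). Ddit4, an inhibitor of mTORC1, was at 10.3, 8.29 and 8.53 fpkm at ZT5 and at 22.2, 25.3 and 23.0 at ZT17 (1.29 ± 0.181, limma adjusted p = 0.00360). Without 1 rat Tsc22d3 reached an adjusted p of 0.0810 (C18, C26 or C29 left out) and Fkbp5 of 0.105 (C18, C21, C26 or C29), and Ddit4 kept its call (up to 0.0333).

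Other members of that list were chosen for mention after their values were seen. Zbtb16, a zinc finger repressor, was at 1.35, 2.71 and 1.26 fpkm at ZT5 and at 17.8, 14.7 and 2.83 at ZT17, where C37 lay next to the ZT5 rats (limma adjusted p = 0.448). Mt1, a metallothionein, went the other way with 119, 131 and 179 fpkm at ZT5 and 18.8, 21.1 and 110 at ZT17, the same rat standing closest to the other side (-1.96, limma adjusted p = 0.251). C37 was thus the lowest of the ZT17 rats in Per1, Per2, Fkbp5 and Zbtb16 and the highest in Mt1.

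Several called genes act outside the clock. Rhobtb1 was at 5.99, 5.01 and 3.02 fpkm at ZT5 and at 25.2, 25.2 and 20.7 at ZT17, a mean 5.07-fold higher (2.15 ± 0.263, limma adjusted p = 0.00132). Tut1, which adds uridines to U6 RNA, was at 4.28, 4.05 and 3.61 fpkm at ZT5 and at 14.3, 10.3 and 20.3 at ZT17, 3.76-fold higher (limma adjusted p = 0.00466). Amd1, the decarboxylase that supplies polyamine synthesis, rose from 28.3, 28 and 19.9 fpkm to 55.8, 50.3 and 58.9, 2.17-fold (1.10 ± 0.136, limma adjusted p = 0.00132). It was the only one of 12 measured polyamine genes with an unadjusted p under 0.05. Herpud1, part of the disposal of misfolded proteins of the endoplasmic reticulum, rose from 46, 55.3 and 57.8 fpkm to 119, 97.4 and 146 (limma adjusted p = 0.00683). These 4 genes kept their call without any 1 of the 6 rats (limma adjusted p up to 0.0492, in Herpud1). Among genes higher at ZT5, Slc41a3, a member of a magnesium transporter family, fell from 31.9, 40.2 and 46 fpkm to 11.8, 12.9 and 14.9, 2.98-fold higher at ZT5 (-1.5 ± 0.253, limma adjusted p = 0.0173, up to 0.108 without C21, C26, C29 or C34).

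Col5a3, a chain of type V collagen, had the second smallest p of all genes. It was at 9.51, 7.20 and 7.28 fpkm at ZT5 and at 1.53, 2.26 and 1.44 at ZT17, 4.59-fold higher at ZT5 (-1.72 ± 0.178, limma adjusted p = 0.000430). C29, the rat with the most fibroblast RNA, was the highest of the ZT17 rats. The call remained without any 1 of the 6 rats (limma adjusted p up to 0.00571). Among 27 measured collagen and matrix genes no other passed, and 3 had an unadjusted p under 0.05, all higher at ZT5 (1.42% of all genes). The list depended on the rats with atrial RNA. As deposited, 13 of the 27 were higher at ZT17 and the median was -0.01. Without C18 and C29, a choice made after the data were seen, 2 were higher at ZT17 and the median was -0.55. In that fit 6 had an unadjusted p under 0.05, all higher at ZT5. P4ha2, an enzyme that hydroxylates collagen, went the other way, from 7.38, 6.24 and 6.47 fpkm to 13.1, 15.7 and 15.2 (limma adjusted p = 0.0245, up to 0.160 with the call lost without any 1 of the 6 rats).

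The remaining called genes had differences of 0.62 to 1.5 in size. Higher at ZT17 were Tinagl1, a matrix protein (1.40), Eya2, a phosphatase and coactivator (1.28), Fam107a, an actin-binding protein (1.11), and Naa60, an N-terminal acetyltransferase (0.62). Higher at ZT5 were Sh3bp5 (-0.75), the N-terminal acetyltransferase Naa40 (-0.73), the sugar-phosphate exchanger Slc37a1 (-0.67) and the Golgi mannosidase Man1c1 (-0.64). Genes with a mean under 5 fpkm, named because they passed, were Fam46b (1.5), Noct (0.99) and Slc25a25 (0.81), a mitochondrial carrier, all higher at ZT17, and Spon2 (-1.30) and Gstcd (-0.82), higher at ZT5. Sh3bp5 and Slc37a1 were the last to pass (limma adjusted p = 0.0448 for both). Just outside the threshold, Adcy6, an adenylyl cyclase downstream of beta-adrenergic receptors, was at 17, 15.5 and 15.6 against 30.5, 26.1 and 24.5 fpkm (0.72 ± 0.151, limma adjusted p = 0.0742).

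Several calls rested on all 6 rats. In the 6 fits that each left out 1 rat, 12 of the 32 genes passed in all 6, 15 in some and 5 (Cry2, Naa40, Naa60, P4ha2 and Slc37a1) in none. The adjusted p of a gene rose to at most 0.219 in these fits. The 12 were Per2, Rhobtb1, Tut1, Tef, Fam46b, Ddit4, Herpud1, Amd1, Noct, Nr1d1, Arntl and Col5a3. Of these, Nr1d1, Arntl, Fam46b, Noct and Ddit4 did not pass with all 54 rats in the fit (limma adjusted p = 0.208, 0.113, 0.113, 0.0953 and 0.99998). When limma was fitted to the 6 rats alone, with 4 residual degrees of freedom, 0 genes passed (364 at an unadjusted p under 0.05) and the smallest adjusted p among the 32 genes was 0.0833. Without C18 and C29, the rats with atrial RNA, 15 genes passed, a choice made after the data were seen. In that fit 1 core clock gene passed higher at ZT17 and 2 higher at ZT5, compared with 4 and 3. The output list held 1 call, compared with 3, and the glucocorticoid list 1, compared with 4. After median-of-ratios scaling Cry2, Herpud1 (limma adjusted p = 0.0541), Slc41a3 (0.0766), Man1c1, Naa40, Naa60, Sh3bp5, Slc25a25 and Slc37a1 no longer passed. After quantile normalisation Gstcd, Noct and Spon2 were lost in place of Herpud1 and Slc41a3. An exact permutation test of 3 against 3 rats cannot give a p below 0.1.

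The 12 C rats at the other 4 times did not enter the means at ZT5 and ZT17, although they gave much of the estimate of the spread on which the 32 genes passed. Their contrast was the mean of ZT13 and ZT21 minus that of ZT1 and ZT9, the hours on either side of ZT17 and ZT5. It had the same sign as ZT17 minus ZT5 in all 32 genes, against 55.9% of all genes, and an unadjusted p under 0.05 in 30, against 2.29% of all genes with the same sign and such a p. The median size in the shared direction was 0.55, compared with 1.28 between ZT17 and ZT5. Over all genes this contrast had an unadjusted p under 0.05 in 2.73% and an adjusted p under 0.05 in 2 genes (0.0195%), both among the 32. These were Nr1d1, which differed by -1.28 ± 0.120 (limma adjusted p = 0.000224), and Col5a3, by -1.03 ± 0.126 (limma adjusted p = 0.00327). Rhobtb1 differed by 1.11 ± 0.186 (limma adjusted p = 0.0639). The exceptions to the 30 were P4ha2, with 0.09 ± 0.132 and means of 12.5 fpkm at ZT9 and 8.88 at ZT13, and Cry2, with 0.08 ± 0.0885 and its highest mean, 12.3 fpkm, at ZT9. Both contrasts came from 1 fit, so the p-values in these rats use the same spread with which the genes were chosen, whereas the signs and sizes do not. The contrast over the 12 rats is a mean of 2 differences, ZT13 minus ZT1 and ZT21 minus ZT9, which can have opposite signs. For Arntl these were -3.37 and 1.78 (limma adjusted p = 2.19e-06 and 0.00474). Nr1d1 was at 5.81, 6.22 and 8.03 fpkm at ZT1 and at 18.3, 20.4 and 16.7 at ZT13, against its direction above. How many of the 32 had such a split was not counted.

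**Figure D3:**
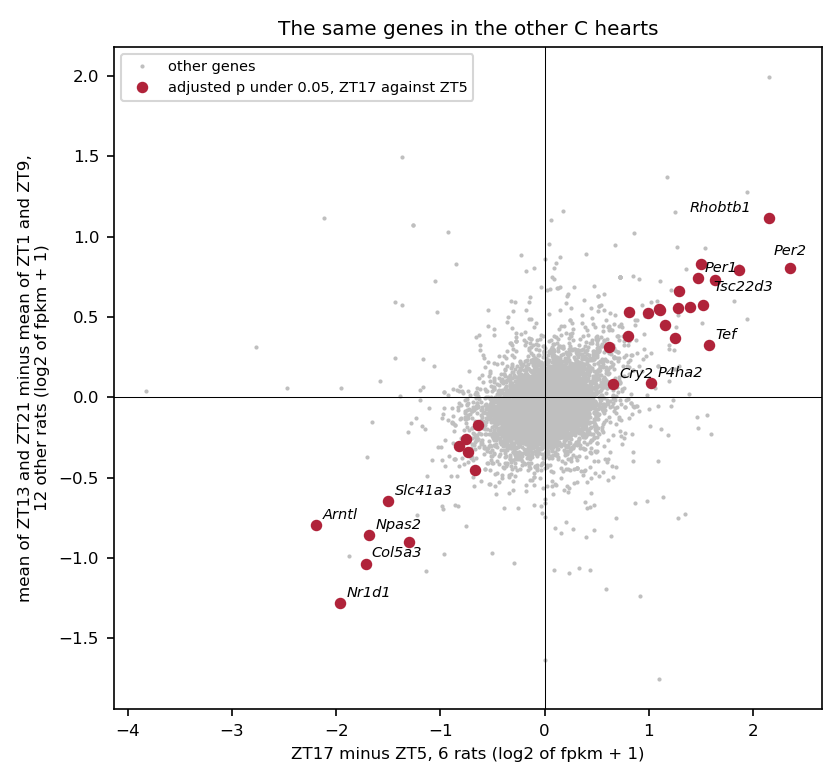
Differences in log2(fpkm + 1) between ZT17 and ZT5 in 6 C rats (horizontal) and between the neighbouring hours in the 12 other C rats (vertical). Each point is 1 of 10257 genes, and red points are the 32 that passed in the first comparison. All 32 lie in the quadrants of equal sign, with Cry2 and P4ha2 closest to 0 on the vertical axis.

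The times of the highest and lowest means are given as a description, since the choice of the genes by ZT17 minus ZT5 favours those times. Of the 21 higher at ZT17, 15 had the highest of their 6 means at ZT17, 3 at ZT13, 2 at ZT21 and 1 at ZT9, and 14 had their lowest at ZT5. Of the 11 higher at ZT5, 8 were highest at ZT5, and 6 were lowest at ZT13, 3 at ZT17 and 2 at ZT21. Arntl had a peak of 12.1 fpkm at ZT1 and a trough of 0.264 at ZT13. Pairs of times chosen elsewhere called other numbers of genes, with 37 genes (0.361%) at ZT13 against ZT1 and 9 (0.0877%) at ZT21 against ZT9, among them 15 and 3 of the 32. These overlaps were counted without regard to direction. Arntl, 1 of the 3, was higher at ZT21 than at ZT9 (log2 difference 1.78, limma adjusted p = 0.00474), opposite to its direction between ZT17 and ZT5.

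At an unadjusted p under 0.05 there were 470 genes (4.58%). With such a p and no overlap between rats there were 383 genes (3.73%), 274 higher at ZT17 (2.67%) and 109 higher at ZT5 (1.06%), the 32 included. In the 12 other C rats 303 of them (79.1%) had the same sign, against 55.9% of all genes. No error rate attaches to any single gene of this set.

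Heat-shock genes and chaperones keep proteins folded. None of 24 measured passed, but 9 had an unadjusted p under 0.05, all higher at ZT17 (3.16% of all genes), and the rats did not overlap in 12, all higher at ZT17 (6.21% of all genes). The median difference was 0.31. Hspa8, the constitutive HSC70, was at 125, 118 and 135 fpkm at ZT5 and at 179, 217 and 205 at ZT17 (0.66 ± 0.144, limma adjusted p = 0.0809). Hspa1a, an inducible HSP70, was at 0.961, 0.791 and 0.958 against 2.29, 3.51 and 5.22 fpkm (1.25 ± 0.292, limma adjusted p = 0.128). Its level at ZT17 was low in fpkm but above every ZT5 rat. Dnajb1, a co-chaperone of HSP70, was at 9.08, 6.77 and 6.38 against 11.1, 16.2 and 12.4 fpkm (0.76 ± 0.217, limma adjusted p = 0.321). Of the 9 genes, 7 had the same sign in the 12 other C rats and 2 (Hspa8 and Dnajb1) also a p under 0.05 there. Of all genes with an unadjusted p under 0.05 between ZT17 and ZT5, 78.9% had the same sign there and 23.8% also such a p, so these shares were near the background.

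Genes of the unfolded protein response of the endoplasmic reticulum gave 1 call in 28 (Herpud1, 0.205% of all genes) and 4 with an unadjusted p under 0.05, all higher at ZT17 (3.16% of all genes). Manf, a secreted protein of that response, was at 22.3, 23.3 and 20.4 fpkm against 28.8, 37.6 and 33.4 (0.57 ± 0.182, limma adjusted p = 0.451). In the 12 other C rats, where Herpud1 differed by 0.45 (limma adjusted p = 0.554), Manf differed by -0.06 and the median of the list was -0.08, compared with 0.22 between ZT17 and ZT5.

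**Figure D4:**
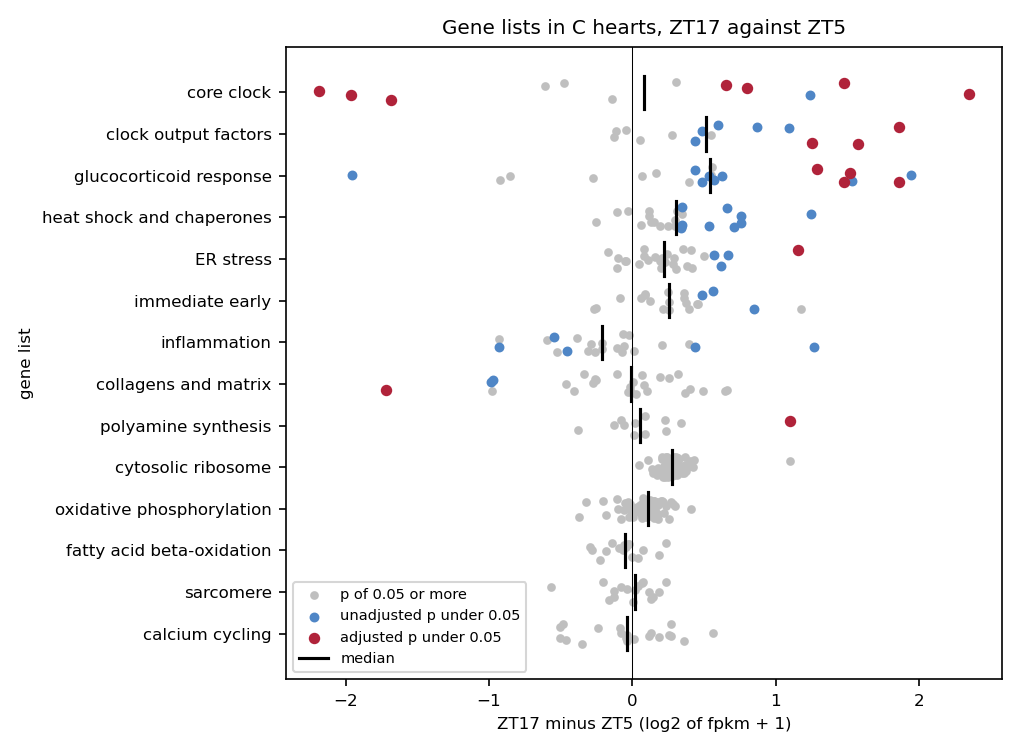
Differences in log2(fpkm + 1) between ZT17 and ZT5 in C hearts for the measured genes of 14 lists. Each point is 1 gene (red, adjusted p under 0.05; blue, unadjusted p under 0.05; grey, other) with vertical jitter, and bars mark the median. The core clock list holds 7 called genes, the output list 3 and the glucocorticoid list 4, with genes on several lists drawn in each, and the medians of the glucocorticoid and sarcomere lists lie at 0.54 and 0.02.

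No cytosolic ribosomal protein passed. All 78 had a higher mean at ZT17, by 0.05 to 1.10 (median 0.28), none with an unadjusted p under 0.05, against 55.9% of all genes that were higher at ZT17. In the 12 other C rats 14 of the 78 were higher on the dark side (median -0.04). After quantile normalisation 73 of 78 were higher at ZT17 with a median of 0.11. Nuclear-encoded subunits of oxidative phosphorylation had 60 of 74 higher at ZT17 (median 0.11), but 23 of 74 after quantile normalisation (median -0.06). Without C18 and C29, a choice made after the data were seen, 67 of these 74 were higher at ZT17 (median 0.29). In both lists 0 genes had an unadjusted p under 0.05 in limma.

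Several lists of heart fuel use, contraction and protein turnover held no gene with an unadjusted p under 0.05. These were the 24 PPAR alpha genes (median -0.14), 16 enzymes of beta-oxidation (-0.05), 18 of the citric acid cycle (-0.09), 17 sarcomere genes (0.02), 17 Z-disc genes (-0.02), 20 calcium cycling genes (-0.04), 28 autophagy and lysosome genes (-0.01), 6 cold-inducible RNA-binding genes (-0.27), 71 mitochondrial ribosomal proteins (0.10), 38 proteasome subunits (0.13) and 35 aminoacyl-tRNA synthetases (-0.02). After quantile normalisation the medians of the sarcomere, mitochondrial ribosome and proteasome lists were -0.27, -0.02 and -0.0046. The 17 sarcomere genes counted Dbi, taken in through a synonym, which is not a filament protein. The medians of that list were not taken without it. The smallest difference that passed in any gene was 0.62, in Naa60. A p that misses the threshold does not show that the levels were equal.

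Other lists held a few genes with an unadjusted p under 0.05, which 4.58% of all genes had. They were 4 of 16 MAP kinase phosphatases and related brakes, 3 of 26 autonomic receptor and cyclase genes, 3 of 23 cell cycle genes (among them the called Wee1), 3 of 14 natriuretic and angiotensin genes, 2 of 17 hypoxia genes (among them the called P4ha2), 2 of 20 FoxO targets, 2 of 25 ion channels, 2 of 33 glycolysis and glycogen genes and 2 of 28 lipid synthesis genes. Nppb, the B-type natriuretic peptide released by strained heart muscle, was at 291, 332 and 174 fpkm at ZT5 and at 38.3, 110 and 76.9 at ZT17. Its rats did not overlap, yet the spread over the C rats was wide (-1.88 ± 0.686, limma adjusted p = 0.700). Npr1, the receptor for this peptide, was at 7.26, 6.88 and 5.22 against 9.88, 9.42 and 8.75 fpkm (0.48 ± 0.156, limma adjusted p = 0.467). Among 22 inflammation genes 2 were higher and 3 lower at ZT17 at an unadjusted p under 0.05. Cebpb, a bZIP factor of the acute phase, was at 9.74, 3.88 and 3.84 against 17.5, 10.2 and 16.2 fpkm (1.27 ± 0.338, limma adjusted p = 0.251). Ccl2, which draws monocytes, was at 8.57, 8.85 and 5.76 against 2.59, 4.05 and 4.09 fpkm (-0.93 ± 0.280, limma adjusted p = 0.406). The summed level of 10 macrophage markers ran from 99.4 to 431 fpkm at ZT5 and from 146 to 384 at ZT17, and its part in these values was not tested. Among 21 genes listed as immediate early 3 had an unadjusted p under 0.05, all higher at ZT17, led by Klf2, a flow-responsive factor, at 16.7, 12.3 and 13.3 against 29.1, 25.5 and 23.8 fpkm (limma adjusted p = 0.843). The list counted Nol3, taken in through a synonym, which is not an immediate early gene and was not among the 3.

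In WRF hearts at the same hours, 29 of the 32 genes had the sign seen in C hearts, against 61.0% of all genes. For 20 genes the unadjusted p was also under 0.05, against 1.90% of all genes with both. The median size was 0.73, and 0 genes passed in WRF hearts after adjustment by limma (230, or 2.24%, at an unadjusted p under 0.05). Tef was at 11.3, 10.6 and 11.4 fpkm in the WRF rats at ZT5 and at 27.9, 30.2 and 31.2 at ZT17 (1.35 ± 0.220, limma adjusted p = 0.178), close to the levels in C hearts. Arntl was at 3.00, 13.4 and 3.96 against 2.18, 1.36 and 1.67 fpkm (-1.28 ± 0.397, limma adjusted p = 0.853). Ddit4, Slc25a25 and Slc37a1 had the opposite sign. The library of WRF62, collected at ZT5, stood apart in T cell RNA and in heart muscle RNA. It held 106 fpkm of Cd3e, against 3.73 and 1.10 in the other WRF rats at that time. Heart muscle genes were low in it, with 566 fpkm of Actc1 against 5495 and 5260 in those rats. Ckm was at 170 fpkm against 1651 and 1528. Without WRF62 all 32 signs were those of C hearts. For 12 WRF rats the labels give different times, and with the times of the other label 20 of 32 signs were shared.

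In W hearts, 15 of the 32 genes had the sign of C hearts, against 56.3% of all genes, with 0 that also had an unadjusted p under 0.05 (0.799% of all genes) and 0 called by limma over all genes (129, or 1.26%, at an unadjusted p under 0.05). The median size in the direction of C was -0.03. The W rats differed among themselves. Per2 was at 1.44, 8.92 and 10.3 fpkm in W3, W18 and W34 at ZT5 and at 6.47, 9.09 and 0.902 fpkm in W9, W21 and W37 at ZT17. Tef was at 11, 31.2 and 35.4 fpkm at ZT5 and at 26.8, 33.4 and 8.00 at ZT17. At ZT5, W18 and W34 thus had levels near those of C hearts at ZT17, and at ZT17 W37 had levels near those of C hearts at ZT5. Without the series of rats W33 to W38, to which W34 and W37 belong, 31 of 32 genes had the sign of C hearts, but that series was singled out for the timing of its clock genes. Without W34 or without W37 alone 26 of 32 did, and without W3 7 did.

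No gene had an effect that differed between groups after adjustment over all genes by limma. For W against C the smallest adjusted p was 0.620 (128 genes at an unadjusted p under 0.05), and for WRF against C 0.987 (171 genes). The difference for Per2 between W and C was -2.66 ± 0.627. Among the 32 genes, 24 had an unadjusted p under 0.05 for W against C (1.25% of all genes) and 4 for WRF against C (1.67%). These genes were chosen on the C rats that enter the difference, so the 24 is a description.

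**Figure D5:**
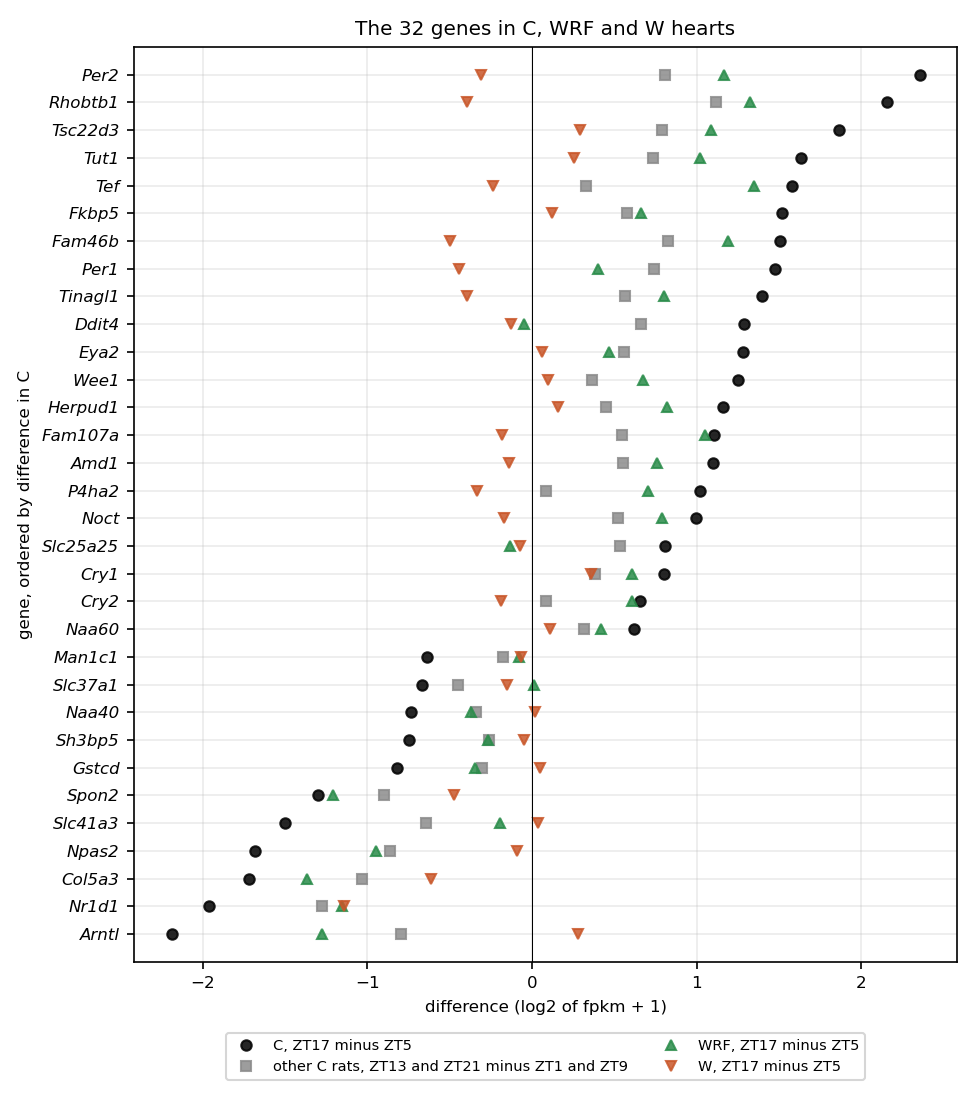
The 32 genes in rows, ordered by their difference in C hearts. The horizontal axis is the difference in log2(fpkm + 1), for ZT17 minus ZT5 in C (black), WRF (green) and W (orange) hearts with 3 rats a side each, and for the neighbouring hours in the 12 other C rats (grey). WRF points follow the sign of C in 29 genes, and W points do so in 15, the farthest being Nr1d1 at -1.14.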

How the data were processed

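Heart RNA (atria and ventricles together) was sequenced from directional polyA libraries of 54 rats. The authors aligned reads to rn6 and estimated expression before deposit, and the deposited FPKM values cover genes above 1 fpkm in at least 18 rats, a filter all 10257 genes met. The submitters' processing notes name TopHat2 and Cufflinks, whose versions, like the annotation, were not given in the sources used here. FPKM holds no counts, so the depth behind a value cannot be read from it, and the library sizes that the study gives were not used here. In all, 0 columns were left unused. Nothing was rescaled. Differences were tested with limma 3.58.1 (R 4.3.3) on log2(fpkm + 1), two-sided, with a mean for each time, a trend in the variance and Benjamini-Hochberg adjustment over 10257 genes, in 18 C, 18 W or 18 WRF rats, or in all 54 for differences between groups. The fit was tested on simulated data. Plots and tables used Python 3.11.15, pandas 2.3.3, numpy 2.4.6 and matplotlib 3.10.9.

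Times came from the rats' titles. Rats are separate animals. The rats compared, the gene lists, the rule for named genes and the tests were chosen with earlier results of these data known. Named genes were called genes averaging 5 fpkm or more without overlap between rats (up to 12 a side, filled up with the smallest p), all clock and output genes, up to 3 genes of smallest p per list, and markers. The other called genes, Zbtb16 and Mt1 were added after their values were seen. Alternatives were other pseudocounts, filters, scalings and sets of rats.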

Additional observations from a re-analysis of the deposited data

How the results depend on the processing

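All 32 genes kept their direction under each alternative in which they were tested, the number passing being what changed. It was 32 with a pseudocount of 0.1 or 0.5, and 21 when the test was confined to genes averaging 5 fpkm or more, which leaves out others that had passed. It was 0 with only the 6 rats, 12 with all 54 rats in the fit, and 59 with the log2 level of Myl7 as a term, the cause not being tested. Median-of-ratios scaling gave 34 (27 higher at ZT17 and 7 higher at ZT5, compared with 21 and 11) and quantile normalisation 38 (31 and 7), sharing 23 and 22 genes with the 32. Leaving out 1 rat gave 13 (without C21) to 25 (without C37), and leaving out both rats with atrial RNA, chosen after the data were seen, gave 15. The rats form 3 series by number. Deviations of the rats of a series correlated at -0.370, 0.177 and 0.361, so they were not taken as pairs, and a replicate block by series gave 47 genes.

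The set of 383 genes fell to 223 with all 54 rats, and ranged from 327 to 553 with 1 rat left out. In W hearts the genes sharing the sign of C numbered 7 to 26 with 1 rat left out and 31 without W33 to W38. The effect of library depth was not tested, since fpkm hold no counts and the study's library sizes were not used here.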

Other observations

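The genes that followed the 11 called ones in order of p on the ZT5 side did not pass. Akap1, a mitochondrial anchor of protein kinase A, was at 42.2, 52.5 and 49.7 fpkm at ZT5 and at 29.1, 25.8 and 16.3 at ZT17 (log2 difference -1.02 ± 0.229, limma adjusted p = 0.0948). Rcan1, an inhibitor of calcineurin, was at 108, 99.1 and 118 against 58.5, 49.3 and 82.0 fpkm (-0.80 ± 0.189, limma adjusted p = 0.134), and Gadd45b, a stress-induced gene, at 8.16, 7.52 and 7.23 against 4.29, 3.95 and 4.08 fpkm (-0.76 ± 0.186, limma adjusted p = 0.179). In the 12 C rats at the other times Gadd45b differed by -0.80 ± 0.132 (limma adjusted p = 0.0639), against -0.38 ± 0.134 for Rcan1.

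Of the 12 glucocorticoid-induced genes with an unadjusted p under 0.05, 11 had the same sign in the 12 other C rats and 10 also a p under 0.05 there, against 78.9% and 23.8% of all genes with an unadjusted p under 0.05. The exception in sign was Mt1, with -1.96 between ZT17 and ZT5 and 0.06 ± 0.370 in the other rats. Dusp1, a MAP kinase phosphatase, was at 21.9, 21.9 and 26 fpkm at ZT5 and at 25.4, 45.6 and 36.7 at ZT17, overlapping, with 0.57 ± 0.226 (limma adjusted p = 0.835) against 0.64 ± 0.160 in the other rats.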
